A study of Homo sapiens and Mus musculus with 213 samples.

Results

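The genes of the long arm of human chromosome 20 (20q) were followed by RNA-seq in HEK293T cells, an established human embryonic kidney line, and in edited lines made from it. The members were chosen by 3 criteria, namely a start beyond 30 Mb on chromosome 20 (hg38, GENCODE), a normalized count that averaged 10 or more across the 9 libraries, and a symbol outside a set of names and gene families that were left out. A normalized count is the number of reads on a gene divided by a size factor of its library. Of the 859 genes listed for the segment, 335 passed the minimum mean, 29 of these were left out by symbol, and 306 were members, out of 20884 genes tested in all. A further 498 genes of the segment, without those left out by symbol, lay under the minimum, of which 262 had no read. Among the members were 236 protein-coding genes, 34 lncRNAs, 24 processed pseudogenes and 5 snoRNAs. The values behind the choice were the mean counts, and the segment was selected on earlier results of these libraries, so that its overall shift in MUT is given as a description.

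Each of 3 lines had 3 libraries. WT was HEK293T with its natural MYC G-quadruplex (G4), a folded structure of guanine-rich DNA upstream of the MYC promoter. MUT was HEK293T_MutMYCG4, in which CRISPR editing put point mutations into the guanine runs of that G4 on all copies, so that it can no longer fold. SWP was a HEK293T line in which the same site was replaced by a different G4 sequence. Both edited lines were grown from single sorted cells, and no treatment was given to any line. The headers of the WT values name a sequencing pool that the headers of MUT and SWP do not name, so that the pool and the difference between WT and the edited lines cannot be told apart, whereas MUT and SWP carry no such mark.

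20q carries many genes that dividing cells use at high levels, among them genes of spindle assembly, nuclear transport, RNA processing and the proteasome, together with the imprinted GNAS locus, where some transcripts come from only the maternal or the paternal chromosome. Extra copies of the arm recur in colorectal cancer and in cultured human pluripotent stem cells, and HEK293T is an aneuploid line whose subclones can differ in chromosome number. DNA copy number was not measured in the files used here, and its part in the values below was not tested. In such bulk libraries, a change in the cells that express a gene and a change in the RNA per cell cannot be told apart.

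The stretches before the RefSeq starts of CDH4 and CTSZ are shown, since among called members with a mean of at least 50 normalized counts these had the largest rise and the deepest fall in MUT against WT. Both come from RefSeq promoter windows on GRCh38.p14, which run from 250 bases before to 50 bases after a start. The window of CDH4 (plus strand, chr20:61499171-61499420) lies 247160 bases inside the gene as GENCODE places it, in an intron, and it holds no copy of the searched motifs.
CDH4: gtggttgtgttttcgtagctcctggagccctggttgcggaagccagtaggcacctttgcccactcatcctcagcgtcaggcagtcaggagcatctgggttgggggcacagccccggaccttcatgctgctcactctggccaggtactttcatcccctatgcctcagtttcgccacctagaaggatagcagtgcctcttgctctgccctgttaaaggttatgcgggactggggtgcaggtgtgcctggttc
CTSZ: agccttaagggccGGGCGGggcaggggccc
For CTSZ (minus strand, chr20:59007255-59007284), the last 30 bases before the RefSeq start are given, with a GC box (GGGCGG) in capitals. This start lies 984 bases inside the gene as GENCODE places it, and the 250 bases before it overlap an exon annotated there, so that the stretch can itself be transcribed. These 250 bases were 81.2% G and C, against 58.4% for CDH4, and held GGGCGG 4 times and its reverse complement CCGCCC once, no E-box, and the pattern of guanine runs described next. EYA2, which had the largest rise in SWP against WT under the same limit on the mean, had no entry in the table.

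Of the 306 members, 194 had a promoter window in the table. GGGCGG on either strand was found in 68.0% of these windows, against 69.8% of the 11941 windows of tested genes outside chromosome 20 and 44.6% of all 27305 windows. The E-box CACGTG, the sequence that MYC binds with its partner MAX, was found in 8.76%, 9.93% and 7.43% of the same sets. A pattern of 4 guanine runs of at least 3 bases with spacers of 1 to 7 bases, on either strand and able to overlap GGGCGG, was found in 41.8%, 34.6% and 24.1%. In MUT against WT, the median log2 fold change was 0.38 for the 81 members with that guanine pattern and 0.44 for the 113 members without it. With and without the E-box the medians were 0.43 (17 members) and 0.41 (177 members), and with and without GGGCGG they were 0.41 (132 members) and 0.43 (62 members). Each order was the reverse in MUT against SWP. There the medians with and without were 0.52 and 0.44 for the guanine pattern. They were 0.40 and 0.47 for the E-box, and 0.47 and 0.46 for GGGCGG. In SWP against WT, members with and without the guanine pattern had -0.10 and -0.01.

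The libraries held 65024354 to 98497026 reads on genes. MYC, the edited gene, had 20020, 28396 and 21580 normalized counts in WT, 10693, 11176 and 12400 in MUT, and 14480, 24743 and 25245 in SWP, so that the MUT values lay below all the others. All 8 markers of HEK293T that were looked up were present with means of 230.5 normalized counts or more, whereas the 7 markers of blood, endothelial, liver, stromal and pigment cells had at most 8.07 normalized counts in any library. The levels of some HEK293T markers differed between the lines. KRT8 had 462 ± 55 in WT, 782 ± 25 in MUT and 190 ± 17 in SWP (mean ± SD, n = 3), while VIM had 58969 ± 4826, 57849 ± 5431 and 53004 ± 2028. No 2 libraries of a group agreed within counting noise (chi-square over genes divided by its degrees of freedom, 8.32 to 55.6). The labels mark the libraries of each line as biological replicates (Bio). The sources do not say that these came from separate cultures, so p-values measure the spread between these libraries, which may be technical.

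In MUT, most of the 20q genes had more RNA than in WT. The median log2 fold change of the 306 members was 0.38, the quartiles lay at 0.15 and 0.66, and 255 of 306 were above 0. The spread of the median over the 3 MUT libraries was 0.0101 (SD). For the 20234 tested genes outside chromosome 20 the median was -0.01 and the quartiles were -0.28 and 0.26, with 49.1% above 0. A gene was called when limma gave an adjusted p under 0.05 over all 20884 genes and a log2 fold change beyond 0.5. By this rule 102 members were higher and 8 were lower in MUT than in WT, where 11.3% of all tested genes were called higher, 10.1% lower and 21.4% in either direction. The values of the 3 MUT and 3 WT libraries did not overlap for 226 members, 205 of them higher and 21 lower in MUT, against 52.3% of all tested genes in either direction. At the adjusted p alone, 181 members were higher and 13 lower, so that many of the members lay between the test and the fold that a call needs. The same held over all 20884 tested genes, of which 8021 passed the adjusted p, 3880 of them higher, and 4476 were called.

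Against SWP, in place of WT, the same 306 members had a median log2 fold change in MUT of 0.43, with quartiles of 0.22 and 0.67 and 262 members above 0. Here 122 members were called higher and 9 lower, beside 12.3% higher, 8.31% lower and 20.6% in either direction of all tested genes. Values did not overlap for 221 members on the higher side and 21 on the lower side (52.3% of all tested genes in either direction). The genes outside chromosome 20 had a median of 0.04. Both comparisons use the same MUT libraries, and their values are not independent of each other.

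Between SWP and WT the members and the rest of the genome had medians close to each other. That of the members was -0.04 (SD over the 3 SWP libraries 0.0222) and that of the genes outside chromosome 20 was -0.06, and the quartiles of the members were -0.17 and 0.07. In this comparison 3 members were called higher and 10 lower, which was 4.25% in either direction. Of all tested genes 2.15% were called higher, 2.98% lower and 5.13% in either direction. Values of SWP and WT did not overlap for 22 members on the higher side and 40 on the lower side. This was 20.3% of the members, against 24.6% of all tested genes. The sign of the median depended on the scaling, and with libraries centred on the genes outside chromosome 20 it was 0.01.

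Library by library, the median difference of the members from the WT mean (log2) was 0.40, 0.39 and 0.41 in MUT. It was -0.03, -0.06 and -0.02 in SWP, and -0.0043, 0.0054 and 0.0101 in WT. No MUT library came near any WT or SWP library. For the 174 tested genes of the same chromosome up to 30 Mb, the MUT libraries lay at 0.06, 0.04 and 0.04. The share of all gene reads that fell on the members told the same in reads, with 1.47%, 1.46% and 1.47% in WT, 2.04%, 2.04% and 2.04% in MUT, and 1.49%, 1.44% and 1.46% in SWP. In counts, 997880 to 1175255 reads per WT library and 1517273 to 1628181 reads per MUT library were on members.

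Along the arm, the shift in MUT was present in every 5-Mb stretch. The medians against WT were 0.36 between 30 and 35 Mb (56 members), 0.45 up to 40 Mb (61), 0.37 up to 45 Mb (25), 0.43 up to 50 Mb (52), 0.32 up to 55 Mb (24), 0.27 up to 60 Mb (31) and 0.43 up to 65 Mb (57). Against SWP they lay between 0.35 and 0.48 in the same 7 stretches. Between SWP and WT they lay between -0.09 and -0.01. Members above 0 in MUT against WT made up 62.5% of those between 50 and 55 Mb and 71.0% of those between 55 and 60 Mb, and 80.4% to 90.2% of those of the other stretches. On the other side of the edge, the 6 stretches of 5 Mb up to 30 Mb had medians between -0.05 and 0.15 in MUT against WT.

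**Figure D1:**
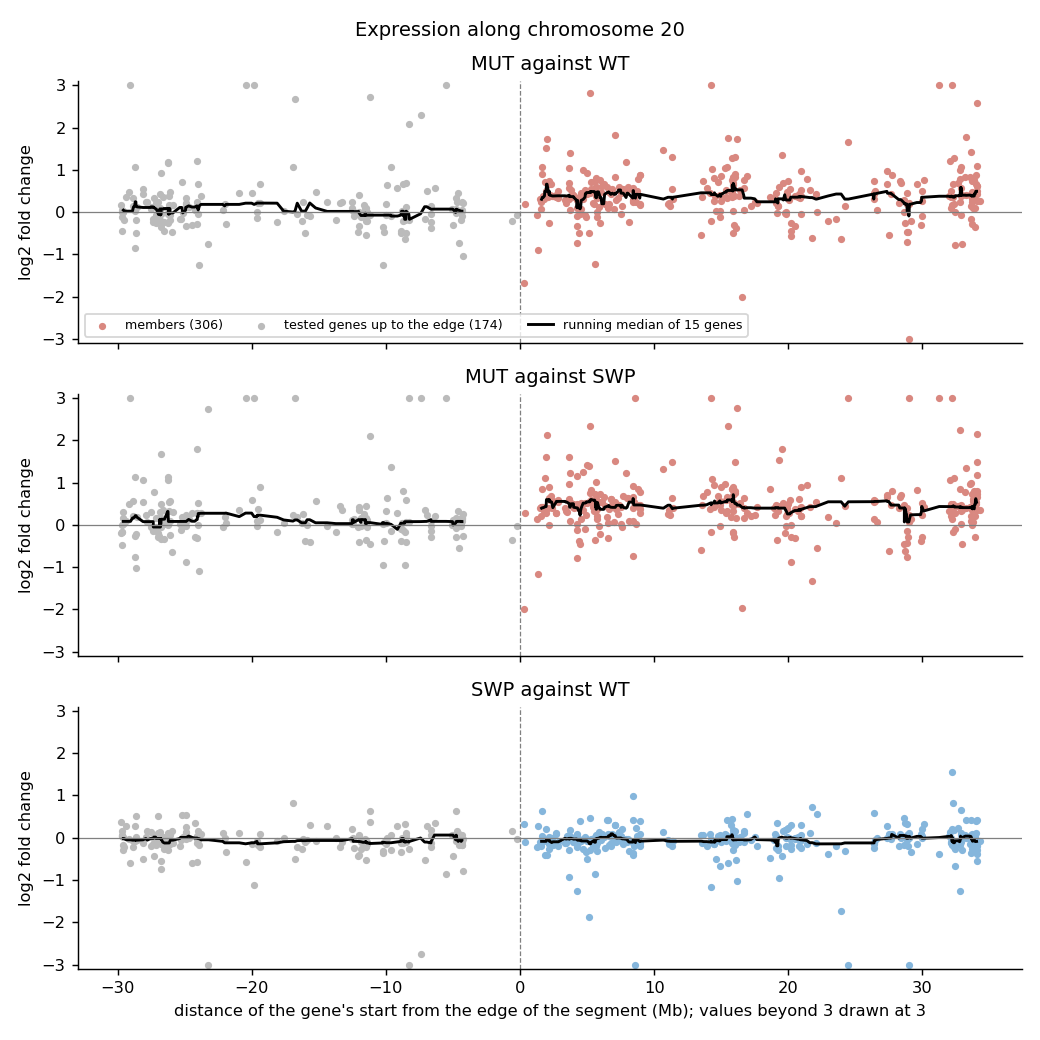
Log2 fold change of each tested gene of chromosome 20 against the distance of its start from the 30 Mb edge, for MUT against WT, MUT against SWP and SWP against WT. Grey points are the 174 genes up to the edge, colored points the 306 members, and the line is the running median of 15 genes on each side. Values beyond 3 are drawn at 3. In both MUT panels the line lies near 0 left of the edge and mostly between 0.2 and 0.7 right of it, while in SWP against WT it stays near 0 on both sides.

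A running median over 15 neighbouring members ranged from -0.09 to 0.68 in MUT against WT, with its highest point near 45.9 Mb and its lowest centred on CTSZ near 59.0 Mb. Over the genes up to 30 Mb the same measure ranged from -0.17 to 0.25. Of 285 windows of 10 Mb outside chromosome 20 that held at least 20 tested genes, the median log2 fold change of MUT against WT was between -0.35 and 0.20 from the 5th to the 95th percentile. The 4 windows of 20q had 0.38, 0.41, 0.29 and 0.43. As high as the lowest of these were 4 of the 285 windows, which lay on chromosomes 5, 6 and 8, with 0.37 as the highest. Some shifts downward were larger. The windows of chromosome 6 that start at 130, 140, 150 and 160 Mb had -0.67, -0.67, -0.67 and -0.85. On chromosome 8, those that start at 80 and 90 Mb had -0.48 and -0.50. The 462 tested genes of chromosome 8 beyond 50 Mb had a median of -0.39 (quartiles -0.67 and -0.02). In MUT against SWP, 7 of the 285 windows reached the lowest 20q window (0.37), and the highest of them was 0.61 on chromosome 12.

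The members were cut by their mean into 3 classes of 102, and the shift was tightest in the class with the most reads. In this highest class (3921 to 85397 normalized counts), the median log2 fold change of MUT against WT was 0.41, with quartiles of 0.30 and 0.55, and 99 of 102 members were above 0. In the middle class the median was 0.37 (quartiles 0.08 and 0.59), and in the lowest class, with means of 10.1 to 300.5, it was 0.36 (quartiles -0.18 and 0.83). Genes outside chromosome 20 in the same ranges of the mean, from highest to lowest, had medians of -0.05, -0.01 and 0.05, and their quartiles also lay closer together at high means (0.38 apart) than at low means (0.82 apart). Against SWP, the medians of the 3 classes were 0.47, 0.42 and 0.41 from highest to lowest, and 100 of the 102 members of the highest class were above 0. The 3 members of the highest class at or below 0 against WT were named after their values were seen. They were XPOTP1, a processed pseudogene of the tRNA exporter XPOT (-0.33, adjusted p = 0.00432 by limma), GSS, which completes glutathione synthesis (-0.11, adjusted p = 0.441), and TCFL5, a transcription factor (-0.06, adjusted p = 0.493).

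Annotated kinds of gene differed in their medians. Protein-coding members had a median of 0.42 in MUT against WT, with 212 of 236 above 0, 90 called higher and 5 lower, where 1642 of 13481 protein-coding genes outside chromosome 20 were called higher and 1407 lower. The 34 lncRNAs had 0.29, with 11 called higher and 1 lower, against 359 and 295 of 2489 outside the chromosome. The 24 processed pseudogenes, which are copies of messenger RNAs put back into the genome and resemble a parent gene elsewhere, had a median of -0.00, with 12 above 0, 1 called higher and 1 lower, against 143 and 274 of 3349 outside the chromosome. Reads of such copies can be split with the parent gene, and their values are uncertain. The same 3 kinds outside chromosome 20 had medians of -0.00, -0.02 and -0.03. The 5 snoRNAs lay between 0.25 and 0.58 with a median of 0.52, and none was called. Exons of 129 members overlapped an exon of another gene of the chromosome, in 99 cases on the other strand, and whether the counting used strand is not given. The 177 members without such an overlap had a median of 0.40, with 64 called higher and 5 lower. Of all 306 members 102 were called higher and 8 lower, and of all tested genes 11.3% and 10.1%.

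**Figure D2:**
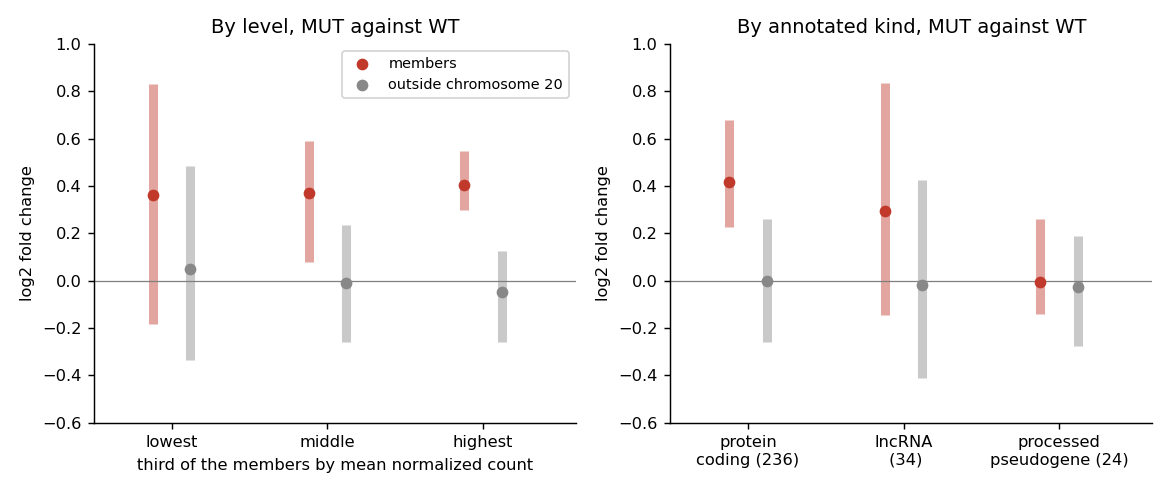
Median (point) and quartiles (ends of the bar) of the log2 fold change of MUT against WT, for 3 classes of 102 members by mean normalized count and for 3 annotated kinds of gene. Members are in red, and tested genes outside chromosome 20 in the same range or of the same kind are in grey. The red bar is narrowest in the highest class, at 0.30 to 0.55, and the median of the processed pseudogenes lies at -0.00.

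The 10 members with the highest mean count, a measure that is not scaled to gene length, all had fitted values above 0 in MUT against WT. MYBL2, a transcription factor of the cell cycle, had 25735, 26468 and 26922 normalized counts in WT, 43393, 42565 and 46763 in MUT, and 27477, 26168 and 29466 in SWP. MUT lay above all libraries of both other lines, which overlapped each other, with a log2 fold change of 0.75 ± 0.07 (SE, n = 3 a group, limma adjusted p = 1.2e-05) against WT and 0.68 ± 0.07 (adjusted p = 1.8e-05) against SWP. It was the only gene of the 10 called against WT.

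GNAS, the stimulatory G protein subunit that couples receptors to cyclic AMP, was the member with the most reads. It had 70893, 79533 and 75257 normalized counts in WT, 99021, 100360 and 109390 in MUT, and 74761, 75776 and 83581 in SWP. All MUT values were the highest, and the difference of 0.45 ± 0.07 (SE; limma adjusted p = 0.000745) stayed under the fold of a call. TPX2, which builds the mitotic spindle, varied least, with 26719 to 27197 in WT, 34701 to 35646 in MUT and 25977 to 26571 in SWP. Its difference from WT was 0.38 ± 0.05 (adjusted p = 0.000255).

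YWHAB, an adaptor that binds phosphorylated proteins, was at 133% of WT in MUT and 96.8% in SWP (0.42, limma adjusted p = 0.00195 in MUT). MAPRE1, which tracks growing microtubule ends, was at 141% and 93.4% (0.498, adjusted p = 0.00181), just under the fold of a call. In 9 of 23 alternative settings or left-out libraries MAPRE1 was called. AHCY, which breaks down S-adenosylhomocysteine, was at 121% and 85.8% (0.28, adjusted p = 0.00771), and RPN2, a subunit of the oligosaccharyltransferase, at 121% and 92.5% (0.28, adjusted p = 0.00406). CSE1L, the exporter of importin alpha, RBM12, an RNA-binding protein, and TOP1, DNA topoisomerase I, did not pass the test against WT. Their values were 0.22 (adjusted p = 0.0775), 0.37 (adjusted p = 0.0641) and 0.20 (adjusted p = 0.0994).

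The largest rise of a called member with a mean of at least 50 was that of CDH4, R-cadherin, an adhesion molecule of retina and brain (ENSG00000179242, chr20:61252261-61940617). CDH4 had 24.6, 38.2 and 31.8 normalized counts in WT, 425, 489 and 546 in MUT, and 18.3, 22.3 and 31.1 in SWP. All WT and SWP values lay under 50, so the gene passed that limit on the mean, and entered this ranking, only through MUT. WT and SWP overlapped and MUT was far above both, with log2 fold changes of 3.92 ± 0.23 (SE, n = 3 a group, limma adjusted p = 7.1e-07) against WT and 4.32 ± 0.23 (adjusted p = 2e-07) against SWP. As for every gene whose 2 groups of 3 do not overlap, the exact permutation test gave p = 0.1, the smallest that 3 against 3 allows.

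CCM2L, a scaffold protein related to the endothelial gene CCM2, followed with 23.6, 46.0 and 33.7 normalized counts in WT, 92.4, 142 and 108 in MUT, and 11.5, 35.7 and 36.9 in SWP. Its log2 fold change against WT was 1.73 ± 0.40 (limma adjusted p = 0.00602), and the wide error went with the low counts.

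STMN3, a neuronal relative of the microtubule-destabilizing protein stathmin, had 2416, 2367 and 2661 normalized counts in WT, 6383, 6761 and 6817 in MUT, and 3368, 3287 and 3317 in SWP. The 3 lines did not overlap, with SWP between WT and MUT. The log2 fold changes were 1.42 ± 0.07 (limma adjusted p = 1.9e-07) in MUT and 0.42 ± 0.07 (adjusted p = 0.00223) in SWP against WT, the latter under the fold of a call. PXMP4, a membrane protein of peroxisomes, had 663 to 710 in WT, 1746 to 1891 in MUT and 730 to 851 in SWP, with 1.40 ± 0.08 (adjusted p = 9.1e-07) in MUT against WT.

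Members that fell ran against the direction of the arm. CTSZ, the lysosomal carboxypeptidase cathepsin Z, had 603, 523 and 495 normalized counts in WT, 52.7, 43.7 and 47.7 in MUT, and 5.73, 2.97 and 3.46 in SWP. The 3 lines were fully apart and the lowest level was in SWP, not in MUT. In reads, CTSZ had 1568 in the 3 WT libraries, 151 in MUT and 12 in SWP, so that WT was 139-fold above SWP (95% exact interval 79.2 to 269, which covers counting error only). The fitted log2 fold change by limma was -3.46 ± 0.22 (adjusted p = 1.3e-06) for MUT and -6.78 ± 0.22 (adjusted p = 2.6e-08) for SWP against WT. The end of CTSZ shares exon sequence with NELFCD on the other strand, a subunit of the negative elongation factor, which had 10259 ± 492 normalized counts in WT, 11671 ± 297 in MUT and 11133 ± 685 in SWP (mean ± SD, n = 3).

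SLC13A3, the sodium-coupled dicarboxylate carrier of kidney, had 484, 498 and 457 normalized counts in WT, 125, 114 and 117 in MUT, and 441, 479 and 475 in SWP. WT and SWP overlapped and MUT was lowest, at -2.01 ± 0.10 (log2, limma adjusted p = 2.9e-07) against WT and -1.96 ± 0.10 (adjusted p = 1.5e-07) against SWP. Its exons share bases with TP53RK on the same strand. LINC01597, a lncRNA and the first member past the edge, fell in MUT as well, with 73.8, 78.6 and 78.0 in WT, 25.9, 20.4 and 24.4 in MUT, and 99.7, 107 and 84.2 in SWP. Its values were -1.67 ± 0.17 (adjusted p = 3.2e-05) against WT and -2.00 ± 0.17 (adjusted p = 7.1e-06) against SWP.

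FER1L4, a pseudogene of the ferlin family, had 103 to 118 normalized counts in WT, 41.9 to 49.9 in MUT and 37.8 to 90.6 in SWP. MUT was below WT at -1.22 ± 0.26 (log2, limma adjusted p = 0.00401). GATA5, a transcription factor of endoderm and heart, was lower in both edited lines. It had 132, 147 and 129 normalized counts in WT, 77.6, 94.3 and 67.2 in MUT, and 81.3, 95.1 and 79.6 in SWP. MUT and SWP overlapped and both lay below WT, with log2 fold changes of -0.78 ± 0.16 (limma adjusted p = 0.00327) and -0.67 ± 0.16 (adjusted p = 0.0242). The call in SWP was lost in 4 of 23 alternatives (adjusted p up to 0.0822).

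**Figure D3:**
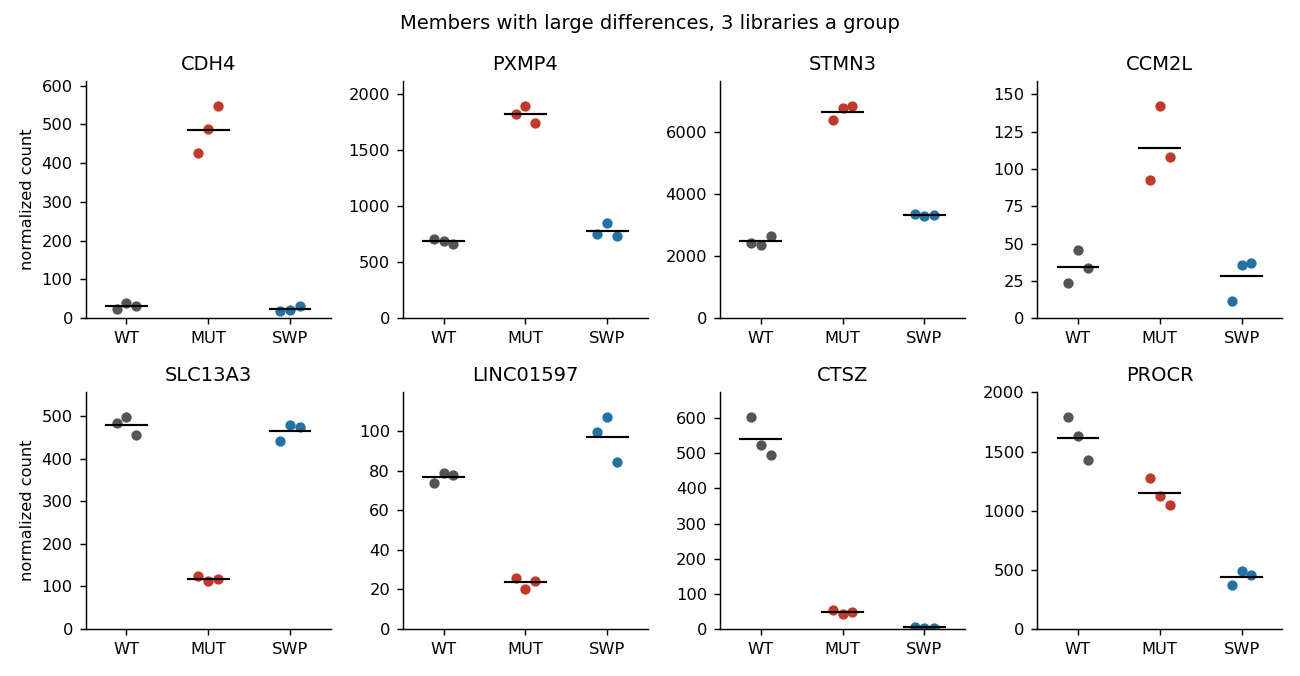
Normalized counts of 8 members in the 3 libraries of each line (points) with the mean (bar), each axis from 0. MUT is highest for CDH4, PXMP4, STMN3 and CCM2L and lowest for SLC13A3 and LINC01597, whereas CTSZ and PROCR are lowest in SWP.

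SWP was called apart from WT in 4.25% of the members, near the 5.13% of all tested genes. PROCR, the endothelial protein C receptor, had 1791, 1632 and 1430 normalized counts in WT, 1278, 1126 and 1049 in MUT, and 369, 493 and 452 in SWP. The lines did not overlap, and the log2 fold change of SWP against WT was -1.89 ± 0.13 (limma adjusted p = 5.1e-06). That of MUT was -0.49 ± 0.13 (adjusted p = 0.0105), short of the fold of a call. PABPC1L, a poly(A)-binding protein, was at 62.9% of WT in SWP (-0.67, adjusted p = 0.0109) and at 93.5% in MUT (-0.10, adjusted p = 0.589). CD40, a receptor of the TNF receptor family, was at 69.3% of WT in SWP (-0.53 ± 0.14, adjusted p = 0.0332), a call that 15 of 23 alternative settings or left-out libraries did not give.

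In SWP against WT, 3 members were called higher, beside 2.15% of all tested genes. EYA2, a transcriptional coactivator with phosphatase activity, had 652, 699 and 708 normalized counts in WT, 1110, 1280 and 1337 in MUT, and 907, 1070 and 1067 in SWP. WT was below both edited lines, by 0.56 ± 0.10 (limma adjusted p = 0.00455) for SWP and 0.85 ± 0.10 (adjusted p = 7.4e-05) for MUT. ERP29P1, a processed pseudogene of the endoplasmic reticulum protein gene ERP29, had 1154 ± 116 in WT, 1162 ± 103 in MUT and 1693 ± 195 in SWP (mean ± SD, n = 3), and its reads may be shared with the parent gene. HRH3, a histamine receptor named because it was the remaining call, had 1 read in WT, 113 in MUT and 9 in SWP over 3 libraries each. The ratio of SWP to WT was 8.47 (95% exact interval 1.17 to 371, counting error only), and that of MUT to WT was 104.7 (18.4 to 4170). The other 5 members called lower in SWP were ENSG00000272945, ARHGAP40, BCAS1, DOK5 and LINC00659, all with means under 50 normalized counts. Without WT replicate 3 or without SWP replicate 3, the number of members called in SWP against WT was 7 or 8 in place of 13.

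In MUT against SWP, CDH4, CTSZ and CCM2L had the largest rises among called members with a mean of at least 50, followed by PTGIS and EMILIN3. CDH4, CCM2L and PTGIS reached that mean only through MUT, and CTSZ only through WT. PTGIS, prostacyclin synthase, had 39.0, 67.3 and 24.1 normalized counts in WT, 122, 97.2 and 92.5 in MUT, and 14.9, 42.3 and 39.2 in SWP, with 1.78 ± 0.41 (limma adjusted p = 0.00565) in MUT against SWP. EMILIN3, a glycoprotein of the extracellular matrix, had 2388 ± 349 in WT, 5843 ± 298 in MUT and 2068 ± 101 in SWP (mean ± SD, n = 3). MUT was above both, by 1.30 ± 0.10 (limma adjusted p = 4e-06) and 1.498 ± 0.10 (adjusted p = 9.2e-07). It shares exon bases with LPIN3 on the other strand.

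After LINC01597 and SLC13A3, the deepest falls in MUT against SWP among called members with a mean of at least 50 were those of SALL4, LINC01273 and HMGB1P1. Below that mean, the pseudogene HAUS6P2 was called at -1.17 ± 0.31 (limma adjusted p = 0.0125). SALL4, a zinc finger factor of stem cells, had 43.1, 90.9 and 66.4 normalized counts in WT, 38.8, 39.9 and 46.8 in MUT, and 102, 122.6 and 96.9 in SWP, with -1.33 ± 0.25 (limma adjusted p = 0.00145). Its MUT and WT values overlapped. LINC01273, a lncRNA, had -0.87 ± 0.32 (adjusted p = 0.0499), and 14 of 23 alternatives did not call it. HMGB1P1, a copy of HMGB1 whose reads may be shared with it, had -0.62 ± 0.15 (adjusted p = 0.0085), and ERP29P1 had -0.54 ± 0.11 (adjusted p = 0.0028).

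The lowest running median lay in a stretch centred on CTSZ that also holds the imprinted GNAS locus. In the 15 members from NPEPL1 (58.7 Mb) to CDH26 (60.0 Mb), 7 were above 0 in MUT against WT and the median was -0.09, beside 0.07 against SWP. Their means had a median of 197 normalized counts, against 1717 for all members, and 10 of the 15 were protein-coding. The 4 of them with a mean over 1000 normalized counts were all above 0. GNAS-AS1, the lncRNA antisense to GNAS, had 210, 269 and 260 normalized counts in WT, 168, 180 and 178 in MUT, and 186, 267 and 264 in SWP. Its log2 fold change of MUT against WT was -0.48 ± 0.16 (limma adjusted p = 0.034), short of the fold of a call, while GNAS itself was higher. Exons of GNAS-AS1 and GNAS overlap on opposite strands.

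Of the 5 imprinted genes of the segment that were members, none was called higher and 1 was called lower in MUT against WT (11.3% and 10.1% of all tested genes), with a median of 0.07. This was L3MBTL1, a chromatin reader expressed from the paternal copy, with 450, 461 and 524 normalized counts in WT, 330, 393 and 274 in MUT, and 537, 547 and 414 in SWP. MUT was below both, at -0.54 ± 0.15 (log2, limma adjusted p = 0.016) against WT and -0.59 ± 0.15 (adjusted p = 0.0098) against SWP. Of 23 alternative settings or left-out libraries, 5 did not give the call against WT (adjusted p from 0.00448 to 0.0712). BLCAP, which surrounds an imprinted neuronal gene, had 0.45 (adjusted p = 0.00287), and MCTS2, a retrogene inside HM13, had 0.07 (adjusted p = 0.577).

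Of the 21 members of the cell cycle, mitosis and apoptosis list, 10 were called higher and none lower in MUT against WT, and 13 higher and none lower against SWP. None was called in SWP against WT, where 5.13% of all tested genes were called in either direction. Of all tested genes 11.3% were called higher and 10.1% lower in MUT against WT and 12.3% and 8.31% against SWP, and of the 306 members 102 were called higher and 8 lower against WT and 122 and 9 against SWP. The medians of the list were 0.50, 0.60 and -0.06, beside 0.38, 0.43 and -0.04 for all members and -0.00, 0.04 and -0.06 for all tested genes. All 21 lay above 0 in both MUT comparisons. Besides MYBL2 and TPX2, the list held the nuclear exporter CSE1L and the microtubule protein MAPRE1. BCL2L1, which encodes the survival protein BCL-XL and was named after its values were seen, had 2302, 2236 and 2346 normalized counts in WT, 4317, 4125 and 4471 in MUT, and 2588, 2171 and 2373 in SWP. MUT was above both other lines, by 0.91 ± 0.08 (limma adjusted p = 8.1e-06) and 0.86 ± 0.08 (adjusted p = 8.5e-06). BCL2L1 shares exon bases with the lncRNA ABALON on the other strand. The other members of the list called against WT were E2F1, RAE1, TTI1, RBM38, FAM83D, TP53RK, CABLES2 and TP53INP2.

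Of the 42 transcription factors and chromatin regulators, 16 were called higher and 2 lower in MUT against WT, where 11.3% of all tested genes were called higher and 10.1% lower. The median was 0.36 beside 0.38 for all members. In SWP against WT, 1 was called higher and 1 lower, with a median of -0.04. This was 4.76% in either direction, near the 5.13% of all tested genes. ADNP and ASXL1, chromatin proteins mutated in developmental disorders, had 0.34 (limma adjusted p = 0.00644) and 0.39 (adjusted p = 0.00136) in MUT against WT, both short of the fold of a call. NELFCD had 0.19 (adjusted p = 0.0438) in MUT against WT and 0.07 (adjusted p = 0.435) against SWP. The 2 called lower were GATA5 and L3MBTL1.

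Of the 13 members of ubiquitin, proteasome and proteolysis, CTSA was the only one called higher and CTSZ the only one called lower in MUT against WT (11.3% and 10.1% of all tested genes), with a median of 0.35 for the list. CTSZ was its only call in SWP against WT, where 5.13% of all tested genes were called in either direction. PSMA7, a core subunit of the proteasome, had 19007 ± 1474 normalized counts in WT, 24223 ± 478 in MUT and 17474 ± 512 in SWP (mean ± SD, n = 3). UBE2C, the ubiquitin carrier of the anaphase-promoting complex, had 9700 ± 592, 12443 ± 162 and 8943 ± 549 in the same order. Both were higher in MUT than in WT at the adjusted p but not at the fold of a call. HM13, which encodes signal peptide peptidase, had 0.30 and TRPC4AP, a substrate receptor of a ubiquitin ligase, had 0.44.

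Of the 24 members of membrane traffic, glycosylation and organelles, 8 were called higher and none lower in MUT against WT (11.3% and 10.1% of all tested genes), with a median of 0.42. None was called in SWP against WT, where 5.13% of all tested genes were called in either direction. VAPB, a tether between the endoplasmic reticulum and other membranes, had 9209, 9640 and 9083 normalized counts in WT, 14368, 14718 and 15917 in MUT, and 9472, 9013 and 9145 in SWP. MUT was above all the others, by 0.69 ± 0.06 (limma adjusted p = 1.3e-05). ERGIC3 had 0.20, DNAJC5, a chaperone of synaptic vesicles, 0.46, and POFUT1, which fucosylates Notch receptors, 0.41, all 3 past the adjusted p and short of the fold.

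Of the 22 members of metabolism and transport, 10 were called higher and 1, SLC13A3, lower in MUT against WT (11.3% and 10.1% of all tested genes), with a median of 0.40 beside 0.38 for all members. SAMHD1, which breaks down deoxynucleotides, had 6996 ± 498 normalized counts in WT, 10245 ± 437 in MUT and 7478 ± 931 in SWP (mean ± SD, n = 3), and NFS1, the cysteine desulfurase of iron-sulfur clusters, had 3904 ± 581, 5828 ± 306 and 3840 ± 218. MUT was above WT by 0.55 ± 0.09 (limma adjusted p = 0.000693) and 0.59 ± 0.10 (adjusted p = 0.000868). GSS, unlike these, had its highest mean in WT.

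Of the 17 signalling kinases, phosphatases and receptors, 3 were called higher and none lower in MUT against WT (11.3% and 10.1% of all tested genes), with a median of 0.37. CD40 was the only call in SWP, lower than WT, where 5.13% of all tested genes were called in either direction. PLCG1, phospholipase C gamma, had 0.21 and PTPN1, a tyrosine phosphatase of insulin signalling, had 0.37 in MUT against WT, under the fold of a call. SRC, the kinase named here after its values were seen, had 2830 ± 202 normalized counts in WT, 4276 ± 185 in MUT and 3103 ± 250 in SWP, with 0.60 ± 0.08 (limma adjusted p = 0.000202).

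Of the 13 neural genes, 10 were called higher and none lower in MUT against WT, and 9 higher and none lower against SWP, with medians of 0.72 and 0.80. Of all tested genes 11.3% and 12.3% were called higher in these comparisons, and 102 and 122 of the 306 members. In SWP against WT, 1 was called higher, EYA2, beside 2.15% of all tested genes, and the median was -0.15. All 13 lay above 0 in both MUT comparisons. The minimum mean that admits a gene counts MUT, so a gene low in WT and SWP can pass only through MUT. GDAP1L1, with a mean of 34.9 normalized counts, had 3.25 against WT and 4.42 against SWP, so most of its counts came from MUT. How far this raised the values of the list was not tested. Besides CDH4 and STMN3, RIMS4, a regulator of synaptic vesicle release, had 5932, 4990 and 5298 normalized counts in WT, 8753, 8395 and 9552 in MUT, and 5650, 5064 and 5994 in SWP. MUT was above both, by 0.72 ± 0.09 (limma adjusted p = 9.8e-05) and 0.68 ± 0.09 (adjusted p = 0.000137). The medians of the lists were not tested against each other or against the other members.

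At the ends of the segment and of the rule, the last tested gene up to the edge was CDC27P3, a pseudogene with 234.7, 187.5 and 180.0 normalized counts in WT and 203.4, 197.3 and 175.3 in MUT, whose ranges overlapped, and the first member past it was LINC01597. The last member was PCMTD2, of the isoaspartyl methyltransferase family, at 64.3 Mb, with 4687 ± 480 normalized counts in WT, 5592 ± 570 in MUT and 4411 ± 487 in SWP (mean ± SD, n = 3). Its difference of 0.26 from WT did not pass the test (limma adjusted p = 0.077). The member with the lowest mean was the read-through transcript TGIF2-RAB5IF, with 10.1 normalized counts, and the gene just short of the minimum was ENSG00000268333, with 9.90. Of the 110 members called in MUT against WT, 20 had a mean under 50, and a mean over all 9 libraries can be carried by the line in which a gene is high, as for HRH3. The limit of 50 used for naming was likewise passed only through MUT by CDH4, CCM2L and PTGIS.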

How the data were processed

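RNA-seq of WT, MUT and SWP (3 libraries each) was used, and the other 204 samples of the series were not analysed here. Per the study's methods, the authors made poly(A) libraries with strand kept, used BWA-MEM, an aligner without splicing, against hg38, took out duplicates (Picard) and counted what remained on GENCODE genes. The counting tool and its strand setting are not given in the sources used here. The deposited signal values are gene counts divided by DESeq2 size factors, and 100.0% of the values came back as whole reads (within 0.01 of a read) when multiplied by the recovered factors. Positions and gene kinds come from GENCODE release 44, to which 57754 of 58336 listed genes matched by identifier.

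limma 3.58.1 (R 4.3.3) with a trend was fitted to log2(normalized count + 1) over 20884 genes with a mean of at least 10, with all 9 libraries in 1 model and Benjamini-Hochberg adjustment over all genes. Differences between groups refer to this scale and come out too small for genes with few reads. Calls required 0.05 as the upper limit of the adjusted p and a change beyond 0.5 (log2). The code was tested on simulated counts in which 200 of 20884 genes were changed. Of these, 10.5% were called at a change of 0.38 (log2), which is under the fold of a call, 68% at 0.75 and 97% at 1.5. A gene that is not called can therefore still have changed. edgeR 4.0.16 and DESeq2 1.42.0 on recovered reads, other pseudocounts, scalings, filters and limits, a replicate block and left-out libraries were alternatives. As a check of pairing, deviations from group means of same-numbered libraries correlated at 0.049 to 0.555, 8 of 9 over 0.1. The exception was replicate 3 of WT and MUT. The pairing of the other groups rests on the numbers in the labels and these correlations.

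Named were, in each comparison, the 5 largest rises and falls among called members with a mean of at least 50 and groups that do not overlap, the 10 highest means, the ends of the segment and of the rule, CTSZ, and the members of each list with the highest means. A gene that this rule names is not reported here. Members and lists were chosen with earlier results of these data known. Sequencing depth was 65024354 to 98497026 reads on genes, and intervals cover counting error only.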

Additional observations from a re-analysis of the deposited data

Results flagged for a closer look

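DOK5, an adaptor of receptor tyrosine kinases, was called higher in MUT and lower in SWP, each against the same WT libraries, and the difference between MUT and SWP was itself tested (log2 fold change 5.03, limma adjusted p = 4.4e-06). It had 13.3, 23.6 and 21.2 normalized counts in WT, 57.3, 59.3 and 68.2 in MUT, and 1.15, 2.23 and 0 in SWP. Since no SWP library held more than 3 reads, the fitted value depends on the pseudocount, and the ratio of reads of MUT over SWP was 47.5 (95% exact interval 18.2 to 176, counting error only). LINC00659, a lncRNA, was likewise called higher in MUT (1.00, limma adjusted p = 0.0302) and lower in SWP (-1.25, adjusted p = 0.0318) than in WT, with a difference between MUT and SWP of 2.25 (adjusted p = 0.000283). It had 18.5, 18.0 and 22.1 normalized counts in WT, 37.0, 42.8 and 39.9 in MUT, and 6.87, 13.4 and 4.61 in SWP. Both genes were picked out after their values were seen.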

How the results depend on the processing

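The number of members called in MUT against WT (110) was 194 at the adjusted p alone and 33 with a log2 fold beyond 1, and stayed between 95 and 119 when any library was left out. In SWP against WT (13 called) it was 7 with a minimum mean of 50, 25 at the adjusted p alone, 8 with a fold beyond 1, and 7 to 12 with a library left out. In MUT against SWP (131 called) it was 210 at the adjusted p alone, 39 with a fold beyond 1, and 113 to 138 with a library left out. Of all 20884 tested genes, 8021 passed the adjusted p alone in MUT against WT, 2083 in SWP against WT and 7944 in MUT against SWP. The other alternatives were counted for the members only. The median of MUT against WT (0.38) was 0.46 with equal totals, 0.42 with equal upper quartiles, 0.395 with edgeR, 0.417 for protein-coding members, 0.401 beyond 35 Mb and, in an alternative chosen after seeing the data, 0.403 for members whose exons overlap no other gene; with a library left out it was 0.385 to 0.396. The median of SWP against WT (-0.04) was 0.004 with equal totals, -0.012 with equal upper quartiles, 0.0091 when centred on genes outside chromosome 20, 0.001 with edgeR and 0.0002 with DESeq2, and -0.054 to -0.036 with a library left out, so its sign followed the scaling. The median of MUT against SWP (0.43) was 0.386 when centred, 0.404 with edgeR, 0.401 with DESeq2, 0.471 for protein-coding members and 0.407 to 0.463 with a library left out. With a replicate block the members called were 116, 18 and 137 in the 3 comparisons, the medians were the same, and no call of a named gene changed. Over the single named genes, 1270 alternatives kept the side of the threshold, 52 lost the call and 34 gained it. No gene that was called turned its direction. TGIF2-RAB5IF, which was not called, ran from -0.031 to 0.296 in MUT against WT. CD40 in SWP against WT lost its call in 15 of 23 (adjusted p 0.00909 to 0.124) and LINC01273 in MUT against SWP in 14 of 23 (0.00379 to 0.173). The cause of these changes was not tested. Depth limits the members with few reads, whose quartiles are the widest.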
